A study of Mus musculus with 3 samples.

Results

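Cells make cholesterol and fatty acids from acetyl-CoA, and 31 genes of these 2 synthesis routes and of their control were followed through single cells of mouse skin. They were chosen by symbol as genes of the pathway, and are 31 of the 31053 genes in the count tables. Each library came from dorsal skin of C57BL/6 mice at 7 weeks of age, and the sources used here give no number of animals behind a library. The normal library was a control given glycerin. The IMQ library received imiquimod, which activates Toll-like receptors and gives mouse skin a psoriasis-like inflammation, and the IMQ+celastrol library with imiquimod and celastrol, a plant triterpenoid. The study asks how celastrol acts on this inflammation. Imiquimod was thus shared by 2 libraries, and no library received celastrol alone.

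In the sterol route, acetyl-CoA is built into mevalonate and isoprenoid units, these are joined into squalene, and squalene is closed into rings that are trimmed to cholesterol. In the fatty acid route, acetyl-CoA is carboxylated and extended into palmitate, which is then elongated or given a double bond. The transcription factors SREBP1 and SREBP2 turn on both sets of genes when the escort protein SCAP carries them to the Golgi, and INSIG proteins hold them back when sterols are plentiful. In skin, sebaceous glands secrete lipids as sebum, and keratinocytes of the upper epidermis make cholesterol and fatty acids for the barrier between their dead outer layers.

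The members fall into 4 groups by role. The early sterol pathway holds Acat2, Hmgcs1, Mvk, Pmvk, Mvd, Idi1 and Fdps. The squalene and ring steps are Fdft1, Sqle, Lss, Cyp51, Tm7sf2, Msmo1, Nsdhl, Hsd17b7, Ebp, Sc5d and Dhcr7. Fatty acid synthesis holds Acly, Acaca, Fasn, Scd1, Scd2, Elovl6, Elovl1 and Me1. The last group holds the regulators Srebf1, Srebf2, Scap and Insig1 and the sterol carrier Stard4.

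The 250 bases before the start site were searched for letters that SREBP and its partner NF-Y are known to bind, and 4 sterol gene windows with 1 to 5 matches are shown. They come from RefSeq on GRCm38.p6, where 25 of the 31 genes had an entry. Fdps, Fdft1, Sqle, Scd1, Scd2 and Stard4 were not matched. Capitals mark the letters TCACNCCAC, the core of a sterol regulatory element, and CCAAT, the box bound by NF-Y, each searched on both strands, so that a box on the other strand reads ATTGG. Hmgcs1 lies at chr13:119690101-119690350 (+), Idi1 at chr13:8885356-8885605 (+), Mvk at chr5:114444019-114444268 (+) and Sc5d at chr9:42264301-42264550 (-), each read 5′ to 3′ toward the gene.
Hmgcs1: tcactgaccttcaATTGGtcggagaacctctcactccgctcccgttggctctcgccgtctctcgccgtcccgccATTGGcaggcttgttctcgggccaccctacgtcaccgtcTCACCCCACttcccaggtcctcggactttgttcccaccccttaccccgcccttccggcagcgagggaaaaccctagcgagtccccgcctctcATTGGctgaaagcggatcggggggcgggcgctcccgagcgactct
Idi1: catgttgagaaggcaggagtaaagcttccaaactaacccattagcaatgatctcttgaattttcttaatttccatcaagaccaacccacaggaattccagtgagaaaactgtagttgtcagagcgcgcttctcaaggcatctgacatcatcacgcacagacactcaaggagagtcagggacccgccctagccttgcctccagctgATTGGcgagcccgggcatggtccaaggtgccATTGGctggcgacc
Mvk: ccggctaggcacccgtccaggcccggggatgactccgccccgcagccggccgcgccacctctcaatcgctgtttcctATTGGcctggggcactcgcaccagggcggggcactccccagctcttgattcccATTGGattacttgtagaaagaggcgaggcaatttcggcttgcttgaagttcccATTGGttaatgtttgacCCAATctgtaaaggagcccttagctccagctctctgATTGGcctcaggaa
Sc5d: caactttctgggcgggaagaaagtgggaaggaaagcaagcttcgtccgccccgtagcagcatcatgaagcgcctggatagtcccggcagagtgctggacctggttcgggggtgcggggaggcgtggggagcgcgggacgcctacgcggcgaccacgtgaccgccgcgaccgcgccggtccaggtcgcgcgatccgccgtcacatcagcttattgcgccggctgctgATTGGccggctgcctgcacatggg
The sterol element core was present in 1 of the 25 members, Hmgcs1, 137 bases before the start. Of all 32851 windows, 1.05% held it. The CCAAT box was present in 20 of the 25 members (80%), against 33.9% of all windows and 37.5% of all genes. Mvk had 5 such boxes, Hmgcs1 had 3, Idi1 had 2 and Sc5d had 1. Acaca, Acat2, Acly, Elovl6 and Scap had none in this window. No member window held a CCAAT box that overlapped the sterol element. A match is a description of letters and not of binding.

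The values are unique molecular identifiers (UMIs), each of which stands for 1 captured transcript. The 3 libraries held 10565, 8236 and 6777 cell barcodes and 77880943, 119831835 and 103267738 UMIs in the order normal, IMQ and IMQ+celastrol, which is the order of all values below. After filters 9558, 7495 and 6092 cells were kept. Cells were grouped into 49 clusters without use of the 31 genes, and a cluster was called "X-like" where marker genes of that cell type led it. For each class and library the UMIs of all cells were added and divided by the class total, giving UMIs per 1000000 (counts per 1000000, or CPM), so a level is a share of the transcripts of that class. With 1 library per group there was no replicate and no test. The 95% intervals cover counting error only, and differences between animals, skin pieces or libraries cannot be told apart from those of treatment. A gene was called higher or lower past a 1.5-fold ratio if it had at least 30 UMIs over the libraries in that class. The normal library shared 26 barcode sequences with the IMQ library and 15 with the IMQ+celastrol library, and those last 2 shared 23.

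In normal skin the synthesis genes took the largest share of transcripts in sebocyte-like cells. The 31 genes together made up 2.38% of the UMIs of the 66 sebocyte-like cells (95% interval 2.35 to 2.41). The share was 0.401% in Schwann-like cells, 0.367% in differentiated keratinocyte-like cells and 0.123% in basal keratinocyte-like cells. It was 0.0951% in fibroblast-like cells and 0.0600% in pericyte or smooth muscle-like cells. Of the 14 classes with at least 50 cells in the normal library, the sebocyte-like class had the highest level for 25 members and the differentiated keratinocyte-like class for 5, namely Mvk, Sc5d, Dhcr7, Elovl1 and Stard4. The remaining member, Scd2, was highest in Schwann-like cells, at 1090 CPM.

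**Figure D1:**
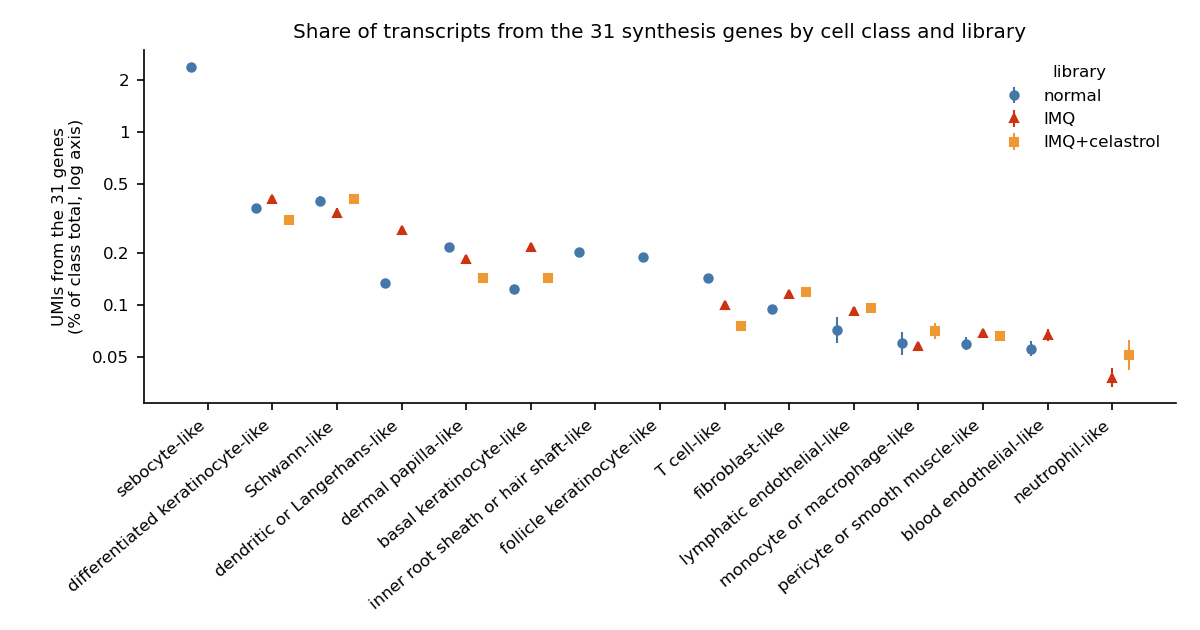
Share of all UMIs that came from the 31 synthesis genes (%, log axis), by cell class and library, with exact 95% binomial intervals for counting error. Sebocyte-like cells of the normal library stand at 2.38%, and basal keratinocyte-like cells at 0.123%, 0.217% and 0.144% in the 3 libraries in that order.

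Fatty acid genes reached the highest ratios between gland and epidermis. Scd1, the desaturase that makes oleate and palmitoleate, stood at 8638 CPM in sebocyte-like cells (8453 to 8825), 180 in differentiated and 50 in basal keratinocyte-like cells, and all 66 sebocyte-like cells held a UMI of it. Elovl6, which lengthens palmitate to stearate, stood at 3787, 68.4 and 11.6 CPM in these 3 classes. Fasn, the synthase of palmitate, stood at 689, 76.8 and 26.9 CPM. Acly, which frees acetyl-CoA from citrate, stood at 537, 132 and 25.6 CPM, and Me1, a source of NADPH, at 514, 138 and 10.7 CPM. The order was thus gland, upper layer, basal layer for all 5.

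Scd2, a second desaturase, and Elovl1, which makes very long chains, had a different order. Scd2 had 15 UMIs in 3 of the 66 sebocyte-like cells (15.6 CPM), against 124 CPM in differentiated keratinocyte-like cells. Elovl1 stood at 21.8 CPM in sebocyte-like, 286 in differentiated and 44.6 in basal keratinocyte-like cells. Of these 3 classes Scd1 was highest in the gland and Scd2 in the upper epidermis.

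Sterol genes were also higher in sebocyte-like than in basal cells, with 1 exception. Hmgcs1, the synthase before the step of HMG-CoA reductase, stood at 1492 CPM in sebocyte-like, 334 in differentiated and 230 in basal keratinocyte-like cells. Msmo1, which removes methyl groups from the sterol ring, stood at 1665, 171 and 102 CPM. Idi1, the isomerase of isoprenoid units, stood at 1281, 172 and 74.2 CPM, and Fdps, which joins these units, at 1071, 463 and 99.4 CPM. Sc5d, a desaturase near the end of the route, had 2 UMIs in sebocyte-like cells (2.08 CPM), against 76.8 CPM in differentiated and 26.2 in basal keratinocyte-like cells. Dhcr7, the last reductase of that branch, stood at 41.6 CPM in sebocyte-like and 104 in differentiated keratinocyte-like cells. Sc5d and Dhcr7 thus did not share the order of Hmgcs1, Msmo1, Idi1 and Fdps. The order did not split early from late steps. Mvk, an early gene, stood at 148 CPM in differentiated keratinocyte-like and 109 in sebocyte-like cells. Ebp, a ring gene, stood at 158 CPM in sebocyte-like and 105 in differentiated keratinocyte-like cells.

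By count, 27 of the 31 members were at least 1.5-fold higher in sebocyte-like than in basal keratinocyte-like cells and 2 were lower, Sc5d and Elovl1. Over all 10433 genes measured, 27.7% were higher and 28.3% lower. Against differentiated keratinocyte-like cells 23 members were higher and 5 lower (Sc5d, Dhcr7, Scd2, Elovl1 and Stard4), where 29% of all genes were higher and 28.8% lower. The IMQ and IMQ+celastrol libraries held 5 sebocyte-like cells each, so this class was not compared between libraries. Soat1, Dgat2 and Elovl3 were among the genes that named the class and are not reported in it.

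Differentiated keratinocyte-like cells were above basal keratinocyte-like cells in each of the 3 libraries. The classes did not hold like cells in each. With imiquimod the largest differentiated cluster was cluster 5 (450 IMQ and 457 IMQ+celastrol cells), led by Krt79, Gpx2 and Defb6. Krt79 and Defb6 also led a follicle keratinocyte-like cluster. Most IMQ basal keratinocyte-like cells lay in the cycling cluster 8 (394). In the normal library 29 of 31 members were at least 1.5-fold higher in differentiated than in basal keratinocyte-like cells and none was lower, where 21.9% of all genes were higher and 27.4% lower. The median log2 ratio of the members was 1.79, and that of all genes -0.07. In the IMQ library 23 were higher and none lower (13.8% and 33.1% of all genes), with a median of 0.93. In the IMQ+celastrol library 24 were higher and none lower (13.2% and 27.6% of all genes), with a median of 1.13. With each cell thinned to 3000 UMIs, 26, 22 and 25 members were higher. The number of members measured after thinning and the shares of all genes were not set beside these 3 counts.

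**Figure D2:**
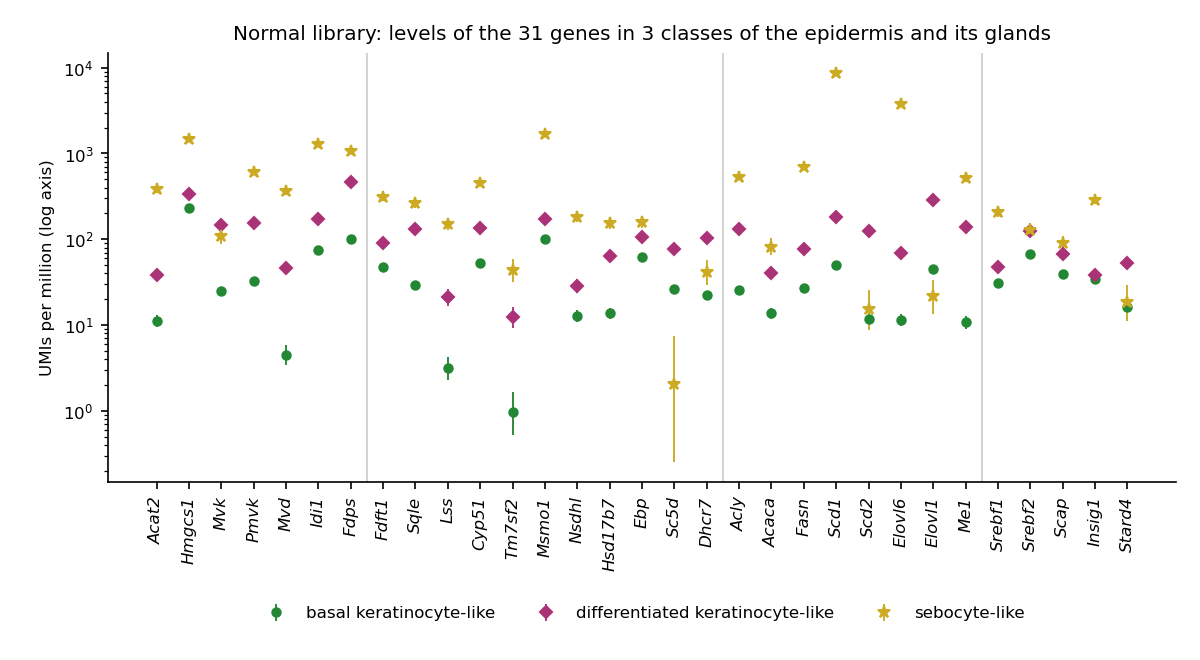
Levels of the 31 genes in the normal library (CPM, log axis) in sebocyte-like, differentiated keratinocyte-like and basal keratinocyte-like cells, with exact 95% Poisson intervals. Scd1 runs from 50 in basal to 8638 in sebocyte-like cells, while Sc5d falls to 2.08 and Scd2 to 15.6 in the sebocyte-like cells.

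Basal keratinocyte-like cells had higher levels of most synthesis genes after imiquimod, and lower levels with celastrol than with imiquimod alone. Between IMQ and normal, 23 of the 31 members were at least 1.5-fold higher and none lower, where 25.6% of all 12578 genes were higher and 21.5% lower. The median log2 ratio was 0.91 for the members and 0.08 for all genes. Between IMQ+celastrol and IMQ, none was higher and 15 were lower, where 11.5% of all genes were higher and 9.46% lower. The medians were -0.58 and -0.05. Both ratios use the IMQ library, so a level that was high or low in that library by chance moves them in opposite directions.

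The early sterol pathway held 6 higher members of 7, and the same 6 were lower with celastrol. Mvd, which decarboxylates mevalonate pyrophosphate, stood at 4.54, 18.9 and 9.05 CPM, 4.17-fold higher with imiquimod (3.18 to 5.56) and 2.09-fold lower with celastrol (1.81 to 2.42). Acat2, the thiolase of the first step, stood at 11.2, 35.1 and 15.7 CPM, 3.14-fold higher (2.63 to 3.76) and 2.24-fold lower (2.01 to 2.50). Idi1 stood at 74.2, 192 and 85.5 CPM, 2.59-fold higher (2.42 to 2.78) and 2.25-fold lower (2.15 to 2.36). For these 3 genes the IMQ library was the highest and the IMQ+celastrol library lay between it and the normal library.

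Pmvk and Mvk are the kinases of the mevalonate steps. Pmvk stood at 32.3, 68.4 and 41.4 CPM, 2.12-fold higher with imiquimod and 1.65-fold lower with celastrol. Mvk stood at 25.3, 40.2 and 23.4 CPM, and Fdps at 99.4, 186 and 97.6 CPM, so that both were slightly below the normal library with celastrol. Hmgcs1 was the member outside this pattern, at 230, 212 and 200 CPM. Its ratios were 1.08-fold lower (1.03 to 1.13) and 1.06-fold lower (1.02 to 1.10). Of the 25 members with a window read, it alone held the sterol element core, and a link to its level was not tested.

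Of the 11 squalene and ring genes 7 were higher with imiquimod and none lower. Lss, which closes the first ring system, stood at 3.18, 14.9 and 6.30 CPM, 4.70-fold higher (3.41 to 6.64) and 2.37-fold lower with celastrol (2.0 to 2.82). Hsd17b7 and Nsdhl act on the ring with Msmo1. Hsd17b7 stood at 13.7, 42.1 and 24.2 CPM, 3.08-fold higher and 1.74-fold lower, and Nsdhl at 12.9, 24.2 and 12.2 CPM, 1.88-fold higher and 1.98-fold lower. Cyp51, the lanosterol demethylase, stood at 52.2, 105 and 67.5 CPM, 2.01-fold higher and 1.55-fold lower. These 4 genes were the ring genes lower by at least 1.5-fold with celastrol.

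Sqle, the epoxidase and a control point of the route, stood at 29.2, 89.6 and 59.9 CPM, 3.07-fold higher (2.75 to 3.43) and 1.49-fold lower (1.41 to 1.59), just inside the 1.5-fold limit. Tm7sf2, a reductase of the ring, was sparse at 0.983, 2.84 and 2.16 CPM, 2.89-fold higher (1.58 to 5.71), and its level with 3000 UMIs per cell had the opposite direction at a log2 ratio of -1.0. Ebp, an isomerase, stood at 62.5, 118 and 114 CPM, higher with imiquimod and near the IMQ level with celastrol. Fdft1, Msmo1, Sc5d and Dhcr7 lay within 1.5-fold in both comparisons. Fdft1, the squalene synthase, stood at 47.3, 62.5 and 45.9 CPM and Msmo1 at 102, 135 and 106 CPM.

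All 8 fatty acid genes were at least 1.5-fold higher with imiquimod in these cells, and 5 were lower with celastrol. Scd2 had the highest ratio of any member, at 11.8, 145 and 33.0 CPM. It was 12.3-fold higher with imiquimod (10.5 to 14.5) and 4.4-fold lower with celastrol (4.11 to 4.70). A UMI of it was present in 121 of 1441 normal, 374 of 468 IMQ and 326 of 1150 IMQ+celastrol cells. With cells thinned to 3000 UMIs, which left out 53, 4 and 15 cells, these shares were 2.88%, 32.8% and 6.61%, and 8.40%, 79.9% and 28.4% without thinning. In monocyte or macrophage-like cells, thinned alike, a Scd2 UMI was present in 2.78%, 7.43% and 8.45% of cells (median 1822.5, 6882 and 5653 UMIs before thinning). Thinning kept 36, 431 and 71 of these cells, so the normal share rests on very few. The basal shares of the normal and IMQ+celastrol libraries were near or below the monocyte or macrophage-like ones, and the IMQ share was above them.

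Acly stood at 25.6, 63.7 and 38.1 CPM, 2.49-fold higher with imiquimod and 1.67-fold lower with celastrol. Fasn stood at 26.9, 56.3 and 37.0 CPM, 2.09-fold higher and 1.52-fold lower. Me1 stood at 10.7, 20.2 and 8.40 CPM, 1.88-fold higher and 2.40-fold lower, which placed it below the normal library with celastrol. Scd1 was also below the normal library with celastrol, at 50, 76.2 and 43.7 CPM. Acaca, which makes malonyl-CoA, stood at 13.8, 25.5 and 19.8 CPM, and Elovl6 at 11.6, 21.9 and 15.4 CPM. Elovl1 stood at 44.6, 68.6 and 59.1 CPM, so these 3 were within 1.5-fold between the imiquimod libraries. With the own threshold of Scrublet, a doublet caller, the log2 ratio of Elovl6 with imiquimod was -0.24 in basal keratinocyte-like cells.

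Among the regulators 2 were past 1.5-fold with imiquimod and none with celastrol. Stard4, which carries cholesterol between membranes, stood at 16.3, 43.5 and 31.5 CPM, 2.67-fold higher (2.30 to 3.10). Scap stood at 39.5, 66.9 and 52.5 CPM, 1.70-fold higher (1.54 to 1.88). Srebf2, the gene of the sterol-directed factor, stood at 68.1, 91.5 and 66.2 CPM and Srebf1 at 31.1, 38.6 and 28.7 CPM. Insig1 stood at 34.9, 36.9 and 40.5 CPM. The transcripts of the 2 factors therefore differed by less than 1.5-fold while those of many enzymes differed by more.

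**Figure D3:**
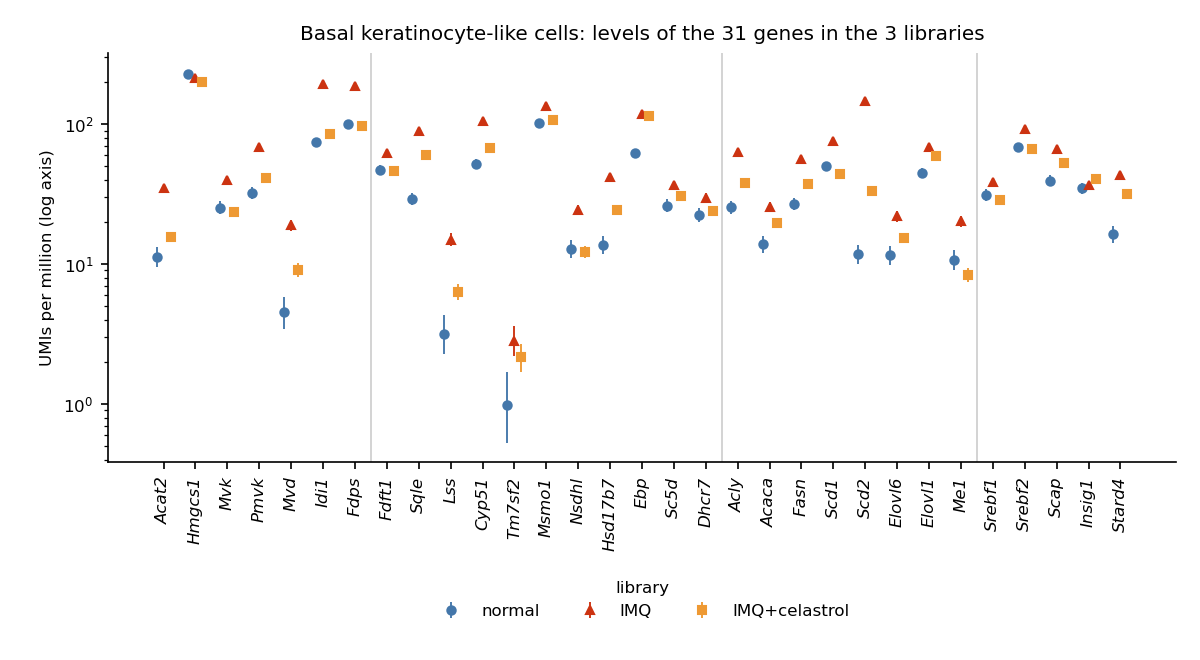
Levels of the 31 genes in basal keratinocyte-like cells (CPM, log axis) in each of the 3 libraries, with exact 95% Poisson intervals. The IMQ points lie above the normal points for all genes except Hmgcs1, and Scd2 goes from 11.8 to 145 and 33.0.

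Depth, cycling cells and the kind of basal cell moved with this result. The median was 8374, 45266 and 26340 UMIs per basal keratinocyte-like cell. With 3000 UMIs per cell 21 members were higher with imiquimod and 18 lower with celastrol. No member with at least 30 UMIs after thinning went the other way past 1.5-fold. Tm7sf2, which was under that minimum and not counted, had a log2 ratio of -1.0 with imiquimod. The 7 cycling markers, all with UMIs, summed to 638, 1160 and 860 CPM. Most normal cells lay in clusters 4 (978) and 20 (208), most IMQ cells in the cycling cluster 8 (394), and the IMQ+celastrol cells in clusters 17 (536), 8 (366) and 20 (238). Cycling clusters alone gave 23 higher and 10 lower, and the others alone 20 higher and 19 lower. The shares of all genes were not set beside these counts or those after thinning. The IMQ cells of the others lay in clusters 20 (63) and 17 (11), and cluster 4 held no IMQ cell. With imiquimod the others alone thus set mostly cluster 20 against mostly cluster 4. Of the cycling clusters, cluster 35 held 189 normal cells and no IMQ cell, and cluster 8 held 7 normal and 394 IMQ cells. With imiquimod the cycling clusters alone thus set cluster 8 against mostly cluster 35, so neither count compared like cells. In clusters that were not cycling Hsd17b7 was 0.33 higher on the log2 scale with celastrol.

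Cluster 20, led by Aldh3a1, Lmo1 and Sostdc1, was the basal cluster with more than 50 cells in each library (208, 63 and 238). Its marker score was 0.691 for basal and 0.384 for follicle keratinocytes, the next class, so it may not stand for basal cells between follicles. Within it 19 of 30 members were higher with imiquimod and none lower (19.5% and 16.4% of all genes), and 16 were lower with celastrol and none higher (8.56% and 9.23% of all genes). Scd2 stood there at 22.0, 62.9 and 25 CPM, 2.86-fold higher (2.0 to 4.16) and 2.52-fold lower (1.96 to 3.23). Idi1 stood at 86.8, 157 and 64.9 CPM and Fdps at 84.3, 173 and 85.2 CPM. In cluster 8 (Ube2c, Top2a, Il19), compared between the imiquimod libraries, 10 of 31 were lower with celastrol and none higher (4.95% and 9.24% of all genes). Scd2 went from 153 to 53.3 CPM and Idi1 from 195 to 99.9 CPM in it. Direction was thus the same inside cluster 20, and inside cluster 8 between the imiquimod libraries. The ratio of Scd2 to the normal library was smaller in cluster 20 than over the class.

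Of the 11 sebocyte markers outside the pathway, 8, 9 and 8 had UMIs in basal keratinocyte-like cells, with Apoc1 the highest. They summed to 991, 716 and 860 CPM, lowest in the IMQ library. Plin5 and Awat1 were at 0 in all 3 libraries. No member had more than 15% of its UMIs in 1 cell of the basal, differentiated or fibroblast-like classes in any library.

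Other genes of the pathway, from lists of 10 sterol, 16 uptake and efflux, 18 fatty acid and 12 triglyceride genes, were read in the same basal cells. Of 9 sterol genes measured 5 were higher with imiquimod, 1 lower, and then 5 lower with celastrol and none higher. Of 16 uptake and efflux genes 4 were higher and 4 lower, then 3 higher and 1 lower. The fatty acid list gave 6 higher and 1 lower of 13, then 1 and 3, and the triglyceride list 5 and 1 of 12, then 2 and 4. Fads3, a fatty acid desaturase family gene, stood at 0.227, 10.6 and 2.55 CPM. Abcg1, which exports sterol, stood at 8.09, 0.645 and 3.41 CPM, 12.5-fold lower with imiquimod (7.27 to 23.2). Mgll, a lipase of monoglycerides, stood at 39.6, 3.53 and 12.5 CPM, 11.2-fold lower (8.88 to 14.4). Abcg1 and Mgll were thus lowest where the synthesis genes were highest.

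Differentiated keratinocyte-like cells showed a mixed picture with imiquimod. Between IMQ and normal, 10 of 31 members were higher and 4 lower, where 21.3% of all 11995 genes were higher and 30.8% lower. The median log2 ratio was 0.00, and -0.16 for all genes. Between IMQ+celastrol and IMQ, none was higher and 8 lower, where 9.21% of all genes were higher and 6.6% lower, with medians of -0.40 and 0.03. With imiquimod, none was higher and 14 lower with Scrublet's own doublet threshold, and 12 and 5 with doublets kept. The cause was not tested. Without cluster 15, 3 were higher and 6 lower.

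Idi1 stood at 172, 392 and 222 CPM in these cells, 2.28-fold higher with imiquimod (2.11 to 2.47) and 1.77-fold lower with celastrol (1.71 to 1.83). Acat2 stood at 38.6, 79.4 and 40.6 CPM, 2.06-fold higher and 1.95-fold lower, and Mvd at 46.2, 82.8 and 51.2 CPM, 1.79-fold higher and 1.62-fold lower. These 3 were the early sterol genes higher with imiquimod. With Scrublet's own threshold the log2 ratio of Mvd was -0.23. Pmvk stood at 155, 199 and 130 CPM, and was the fourth early gene lower with celastrol. Fdps was level with imiquimod, at 463, 452 and 308 CPM, and Hmgcs1 stood at 334, 334 and 274 CPM.

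Among ring genes Fdft1, Nsdhl, Cyp51 and Lss were higher with imiquimod and Dhcr7 lower. Fdft1 stood at 90.6, 171 and 130 CPM, Nsdhl at 28.8, 52.6 and 31.7 CPM and Cyp51 at 134, 219 and 147 CPM. Lss stood at 21.0, 32.7 and 21.2 CPM. Nsdhl, Lss and Tm7sf2 were lower with celastrol, Tm7sf2 at 12.4, 9.76 and 5.81 CPM. Dhcr7 stood at 104, 44.8 and 50.2 CPM, 2.31-fold lower with imiquimod (2.06 to 2.58). With Scrublet's own threshold the log2 ratio with imiquimod was -0.074 for Fdft1, -0.26 for Cyp51 and -0.13 for Lss, and without cluster 15 that of Lss was -0.044, so the direction of these 3 depended on which cells were kept.

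The fatty acid genes divided in the same cells. Scd2 stood at 124, 277 and 145 CPM, 2.23-fold higher with imiquimod (2.04 to 2.45) and 1.92-fold lower with celastrol (1.84 to 2.0). With Scrublet's own threshold its log2 ratio with imiquimod was -0.11. The elongases were lower with imiquimod, Elovl6 at 68.4, 26.4 and 20.8 CPM and Elovl1 at 286, 150 and 136 CPM, which is 2.60-fold (2.25 to 2.99) and 1.91-fold lower (1.78 to 2.04). Acaca stood at 40.1, 23.3 and 26.3 CPM, 1.72-fold lower. Of the regulators Insig1 stood at 38.6, 63.2 and 81.8 CPM, highest with celastrol, and Stard4 at 53.3, 80.7 and 65.8 CPM. With Scrublet's own threshold their log2 ratios with imiquimod were -0.10 and -0.25, and that of Stard4 was -0.036 without cluster 15.

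The clusters of this class differed between libraries. Most normal cells lay in cluster 27 (378 cells, led by Krt77 and Lor), and the cells of the other libraries in cluster 5 (450 IMQ and 457 IMQ+celastrol, Krt79, Gpx2 and Defb6) and cluster 15 (370 and 256, Sprr2d and Krt6b). Krt79 and Defb6 were also among the leading genes of cluster 25, a follicle keratinocyte-like cluster. The 9 differentiation markers, all with UMIs in each library, summed to 57653, 18519 and 28653 CPM in this class, and the 7 basal keratinocyte markers to 2048, 17264 and 17743 CPM, with Krt14 the highest. Their part in the results was not tested, and differentiation state and treatment cannot be told apart between IMQ and normal here. Within cluster 15, 1 member (Insig1) was higher with celastrol and 10 lower, where 12.8% of all genes were higher and 7.66% lower. Within cluster 5 none was higher and 4 lower (Idi1, Acat2, Srebf1 and Scd1), where 5.62% were higher and 6.47% lower. Idi1 went from 468 to 269 CPM in cluster 15 and from 316 to 191 CPM in cluster 5.

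Cluster 15, led by Sprr genes of the cornified envelope, was above cluster 5 for most members. In the IMQ library 18 of 31 were higher and 3 lower (Srebf1, Scd1 and Scap), where 10% of all genes were higher and 33% lower. In the IMQ+celastrol library 14 were higher and 1 lower (Scd1), against 11.3% and 26.1% of all genes. Hmgcs1 stood at 422 CPM in cluster 15 and 244 in cluster 5 of the IMQ library, and Fdps at 543 and 360. Scd1 went the other way, at 78.2 and 190 CPM.

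Of the other pathway genes in differentiated keratinocyte-like cells, 3 of 9 sterol genes were higher with imiquimod and 1 lower, and none was higher and 1 lower with celastrol. The uptake list gave 5 and 3 of 14, then 2 and 2. The fatty acid list gave 5 and 2 of 13, then 0 and 5, and the triglyceride list 6 and 4 of 12, then 0 and 2. Plin2, which coats lipid droplets, stood at 11.9, 106 and 91.5 CPM, 8.94-fold higher with imiquimod (6.71 to 12.2). Acsl3, a fatty acid activating enzyme, stood at 9.34, 43.2 and 29.6 CPM. Soat1, which esterifies cholesterol, stood at 0.758, 5.29 and 0.631 CPM, the largest difference with celastrol in this set at 8.39-fold lower (4.85 to 15.7).

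In fibroblast-like cells 10 of 18 sterol genes were higher with imiquimod. With celastrol against imiquimod alone, members past 1.5-fold were no more frequent than such genes among all genes. Between IMQ and normal, 12 of 31 members were higher and 1 lower, where 14.9% of all 13335 genes were higher and 18% lower, with medians of 0.37 and -0.02. The 12 became 5 with each library clustered by itself and 7 with every cluster named. Between IMQ+celastrol and IMQ, 4 were higher and 1 lower, where 14.4% were higher and 6.44% lower, with medians of -0.10 and 0.14. Centred on the median of all genes, the count with celastrol was 3 higher and 7 lower. The direction over the whole list with celastrol thus depended on the scale.

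Of these 12 genes 10 were sterol genes. Fdft1 stood at 11.1, 29.4 and 19.7 CPM, 2.66-fold higher (2.22 to 3.22), and Lss at 2.88, 8.44 and 6.29 CPM, 2.93-fold higher (2.05 to 4.29). Acat2 stood at 7.53, 18.1 and 13.7 CPM, and Mvd at 7.45, 16.6 and 11.1 CPM. Sqle, Cyp51, Msmo1, Nsdhl, Idi1 and Dhcr7 were between 1.5-fold and 1.78-fold higher. Hsd17b7 stood at 12.7, 16.4 and 10.3 CPM and was the member lower with celastrol, and Tm7sf2, at 2.64, 1.66 and 2.45 CPM, was the one lower with imiquimod.

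The 4 members higher with celastrol, a count not above the share of all genes, were all fatty acid genes. Scd2 stood at 145, 117 and 209 CPM, 1.78-fold higher than in the IMQ library (1.69 to 1.87). Elovl6 stood at 9.94, 7.91 and 15.2 CPM, 1.92-fold higher (1.59 to 2.34). Me1 stood at 13.2, 9.09 and 15.6 CPM, 1.72-fold higher, and Acaca at 17.1, 18.6 and 28 CPM, 1.51-fold higher. Over the class Scd2 was thus lowest in the IMQ library in these cells, whereas it was highest there in both keratinocyte-like classes. Within fibroblast-like cluster 2 and the unnamed cluster 13, given below, the normal library was the lowest. With Scrublet's own threshold the log2 ratio of Scd2 with imiquimod was -0.11 in differentiated keratinocyte-like cells. The contrast between the classes was not tested. Before centring, all 8 fatty acid genes had a log2 ratio above 0 with celastrol and all 7 early sterol genes one below 0. Acly stood at 39.3, 63.8 and 65.6 CPM, higher with imiquimod and level with celastrol.

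Keratinocyte markers were highest in fibroblast-like cells of the IMQ+celastrol library. The 7 basal markers, all with UMIs in each library, summed to 86.4, 96.8 and 452 CPM, with Krt14 the highest at 29.4, 70.7 and 332 CPM. The 9 differentiation markers, also all with UMIs, summed to 164, 93.6 and 246 CPM. Their part in the difference with celastrol was not tested.

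**Figure D4:**
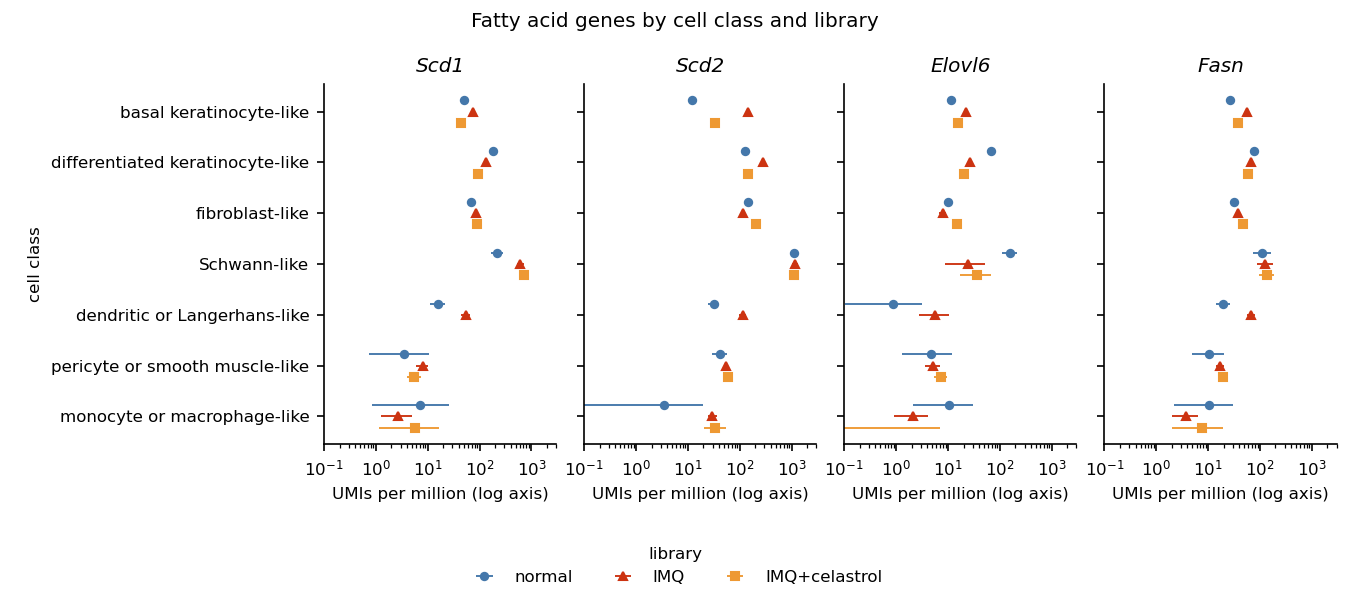
Levels of fatty acid genes (CPM, log axis) by cell class in the 3 libraries, with exact 95% Poisson intervals. For Scd2 the IMQ library lies highest in basal keratinocyte-like cells (145) and lowest in fibroblast-like cells (117), and Schwann-like cells stand at 1090, 1161 and 1122.

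The fibroblast-like clusters differed in this respect. Cluster 2 (Thbs4, Myoc and Cilp, 182, 572 and 445 cells) had 17 of 30 members higher with celastrol and none lower, where 11.9% of all genes were higher and 6.62% lower. Scd2 stood there at 92.3, 106 and 305 CPM, 2.87-fold higher with celastrol (2.63 to 3.14), and Fasn at 24.6, 24.8 and 46.7 CPM. Cluster 3 (Coch, Fmod and Dkk2, 449, 151 and 433 cells) had none higher and 7 lower, where 10.9% were higher and 11.7% lower. Those 7 were Mvk, Mvd, Idi1, Fdps, Fdft1, Sqle and Hsd17b7, and Fdft1 stood at 9.34, 40.3 and 17.7 CPM.

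With imiquimod, cluster 2 had 11 members higher and 2 lower (17.5% and 16.1% of all genes) and cluster 3 had 7 higher and 3 lower (22.7% and 10.5% of all genes). Cluster 13, which stayed unnamed and was led by Smpd3, Chrdl1 and Dpp4 (83, 306 and 282 cells), had 18 of 28 members higher with celastrol and none lower, where 14.7% were higher and 6.61% lower. Scd2 stood at 114, 117 and 334 CPM in cluster 13. The clusters that hold fibroblast-like cells shifted between libraries too, since cluster 1 (Tnc and Mmp3) had 4, 1083 and 163 cells.

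Of the other pathway genes in fibroblast-like cells, 2 sterol genes were higher with imiquimod and none lower, 4 uptake genes higher and none lower, 7 of 14 fatty acid genes higher and none lower, and 5 triglyceride genes higher and 1 lower. With celastrol the 4 lists gave 0 and 0, 2 and 1, 1 and 1, and 0 and 1. Plin2 stood at 56.3, 268 and 95.2 CPM, 4.77-fold higher with imiquimod (4.41 to 5.16) and 2.82-fold lower with celastrol (2.67 to 2.99). Mgll stood at 40.6, 12.5 and 18.1 CPM and Fads3 at 4.73, 11.6 and 11.1 CPM. Mgll was lower and Fads3 higher with imiquimod in these cells, as in basal keratinocyte-like cells.

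In T cell-like cells a single cell carried much of the fatty acid signal. Over the class 2 of 29 members were higher with imiquimod and 7 lower, where 16.9% of all genes were higher and 15.2% lower. Scd1 stood at 85.5, 2.39 and 0.811 CPM. In the normal library 1 cell of cluster 10, with 19373 UMIs, held 162 of the 182 Scd1 UMIs of the class and 114 of the 158 of Elovl6. The same cell held 49 of the 53 UMIs of Cidea and 156 of Mgst1, both sebocyte markers. Without it Scd1 stood at 9.49, 2.39 and 0.811 CPM and Elovl6 at 20.9, 15.3 and 23.5 CPM.

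Left without that cell, 4 of 28 members were higher with imiquimod and 2 lower. Neither count was above the shares of all genes given above, which include that cell. The levels without it are given next. Idi1 stood at 147, 77.8 and 38.9 CPM and Insig1, the sterol sensor partner of SCAP, at 133, 60.1 and 43.0 CPM, and these were the 2 lower genes. Hmgcs1 stood at 104, 70.3 and 57.6 CPM. Mvd stood at 7.11, 29.9 and 18.7 CPM, 1 of the 4 higher. Background from free RNA was not tested. For comparison, Scd1 stood at 3.54, 7.95 and 5.51 CPM in pericyte or smooth muscle-like cells and 7.00, 2.68 and 5.65 in monocyte or macrophage-like cells. The T cell-like level without the cell lay in or below the range of these values, apart from 9.49 CPM in the normal library.

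Between IMQ+celastrol and IMQ, 2 members were higher in T cell-like cells and 9 lower, where 9.73% of all genes were higher and 9.69% lower. Without the single cell these were 2 and 8, since Scd1, with 8 and 1 UMIs in the 2 libraries compared, passed the minimum through that normal cell. Msmo1 stood at 53.3 CPM with imiquimod alone and 15.4 with celastrol, 3.46-fold lower (2.15 to 5.88). Fdps stood at 70.0 and 36.5 CPM, 1.92-fold lower (1.39 to 2.70), and Idi1 was 2.0-fold lower (1.46 to 2.78). Cyp51 stood at 43.4 and 24.3 CPM, 1.78-fold lower (1.2 to 2.74). These 4 sterol genes were lower with celastrol as in basal keratinocyte-like cells, apart from Msmo1, which lay within 1.5-fold there.

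The T cell-like clusters did not move together with imiquimod. Cluster 24, which expressed Il17a and Il22 (107, 265 and 121 cells), had 13 of 23 members higher and none lower, where 31.8% of all genes were higher and 17.4% lower. Fdps stood there at 39.7, 107 and 50.2 CPM, 2.68-fold higher (1.43 to 5.69), and Elovl1 at 19.9, 67.3 and 38.2 CPM. With celastrol 12 were lower and none higher, against 13.1% and 9.93% of all genes. Cluster 10 (Trdc and Xcl1, 344, 265 and 140 cells), which held the single cell, had none higher with imiquimod and 11 lower of 21 with that cell included, against 20.2% and 22.1% of all genes. Without it the log2 ratio in cluster 10 was 1.08 for Acat2, 0.77 for Elovl6 and 0.71 for Acly, and -1.94 for Idi1, -0.90 for Hmgcs1 and -0.79 for Insig1. These were picked from both directions and do not show how many members went each way. No count was made in cluster 10 without the cell. Cluster 23 (Ccl5 and Gzma) had 2 higher and 5 lower of 20, against 13.4% and 15.4%.

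Among other pathway genes of T cell-like cells, counted with the single cell included, the sterol list gave none higher and 2 lower with imiquimod and the same counts with celastrol. The uptake list gave 1 and 1, then 2 and 1. The fatty acid list gave 1 and 5 of 11, then 1 and 0 of 10, and the triglyceride list 2 and 3 of 11, then 2 and 0. Apoe, a lipid carrier, stood at 408, 31.1 and 323 CPM, and Fads3 at 40.9, 7.48 and 17.8 CPM. Fads3 was lower with imiquimod here and higher in basal keratinocyte-like cells.

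Most measured members were higher with imiquimod in dendritic or Langerhans-like cells. Here 25 of 27 measured members were higher and none lower, where 22.7% of all genes were higher and 11.3% lower, with medians of 1.05 and 0.16. The summed share of the 31 genes was 0.134% in the normal and 0.273% in the IMQ library. The IMQ+celastrol library held 35 such cells and was not compared. Fdft1 stood at 14.6 and 73.1 CPM, Scd2 at 31.8 and 114 CPM, Fasn at 19.7 and 67.3 CPM and Sqle at 23.2 and 69.6 CPM in normal and IMQ. Insig1 stood at 111 and 86.9 CPM, and was 1 of the 2 within 1.5-fold.

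This class held 2 clusters whose make-up shifted. Cluster 28 (Mgl2 and Cd209, 297 normal and 51 IMQ cells) had 14 of 21 members higher and none lower, where 27% of all genes were higher and 14% lower. Cluster 38 (Cd207, the langerin gene, 83 and 62 cells) had 15 of 25 higher and 1 lower, where 18.6% were higher and 14.3% lower. Hmgcs1 stood at 191 and 370 CPM over the class, but at 70.7 and 91.4 CPM in cluster 28 and 484 and 464 CPM in cluster 38. Fdps stood at 101 and 222 CPM in cluster 28 and at 130 and 288 CPM in cluster 38. Its ratio was 2.20-fold (1.69 to 2.84) in cluster 28 and 2.21-fold (1.75 to 2.82) in cluster 38. The ratio of Hmgcs1 over the class was thus not present within either cluster at that size. With 3000 UMIs per cell, which kept 312 normal and 101 IMQ cells, 14 members were higher. The number measured after thinning and the share of all genes were not set beside this count. It therefore cannot be compared directly with the 25 of 27.

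Schwann-like cells, the myelin-forming glia of nerve, had sterol genes that were lower with imiquimod. They formed a single cluster whose leading genes included Mbp and Ncmap, with 112, 74 and 82 cells and a median of 1720, 2554 and 2838 UMIs. Of 21 measured members 4 were higher with imiquimod and 11 lower, where 18.2% of all genes were higher and 17.2% lower, with medians of -0.93 and -0.00. With celastrol 8 were higher and 1 lower, where 13% were higher and 15% lower, and the median was 0.25. This was the opposite of basal keratinocyte-like cells, and the difference between the classes was not tested.

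Hmgcs1 stood at 429, 131 and 262 CPM in Schwann-like cells, 3.27-fold lower with imiquimod (2.19 to 5.0) and 2.0-fold higher with celastrol (1.31 to 3.12). Msmo1 stood at 296, 87.5 and 219 CPM, 3.38-fold lower (2.07 to 5.74) and 2.50-fold higher (1.51 to 4.28). Srebf2 stood at 112, 43.7 and 102 CPM, 2.55-fold lower (1.22 to 5.72). The IMQ library was the lowest for these 3 genes. Cyp51 stood at 98.7, 31.8 and 65.6 CPM and Elovl6 at 154, 23.9 and 36.4 CPM, the latter 6.47-fold lower with imiquimod (2.70 to 18.8).

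Scd1 and Srebf1 went the other way. Scd1 stood at 219, 612 and 714 CPM, 2.80-fold higher with imiquimod (2.03 to 3.92), and Srebf1 at 60.1, 123 and 146 CPM, 2.05-fold higher (1.06 to 4.18). Scd2, high throughout this class, stood at 1090, 1161 and 1122 CPM, with ratios of 1.07 (0.898 to 1.27) and 1.04-fold lower (0.879 to 1.22). Cidea was at 0 in Schwann-like cells of all 3 libraries. Against fibroblast-like cells, 27 of 31 members were higher in Schwann-like cells of the normal library and 1 lower (39.7% and 22.2% of all genes). In the IMQ library 16 were higher and 3 lower (44.1% and 18.9%), and in the IMQ+celastrol library 22 and 4 (35% and 24.9%).

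Other classes moved less or rested on fewer UMIs. Pericyte or smooth muscle-like cells had 5 of 30 members higher with imiquimod and 3 lower (18.2% and 18% of all genes), and 1 higher and 2 lower with celastrol (6.77% and 5.49%). Lymphatic endothelial-like cells had 7 of 17 higher and none lower (24.2% and 13.7%), and none higher and 1 lower with celastrol (7.83% and 8.3%). Monocyte or macrophage-like cells had 5 of 22 higher and 6 lower (25% and 18.9%), and 7 higher and none lower with celastrol (10.6% and 16.8%). Their Fdps level was 49.0, 22.0 and 50.8 CPM, lowest in the IMQ library. The make-up of this class shifted too, since cluster 36 (C1qa and Pf4) held 105, 59 and 16 of its cells and cluster 16 (Chil3 and Ly6c2) 21, 508 and 83.

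Dermal papilla-like cells gave different counts by cluster. Over the class 3 members were higher with imiquimod and 9 lower, where 24.4% of all genes were higher and 27.9% lower. Of the normal cells 501 lay in cluster 22 (Hhip and Wif1), which held no cell of the other libraries. Within cluster 19 (Crabp1 and Notum, 52, 158 and 305 cells) 18 of 30 were higher and 1 lower, Fdps, against 30.4% and 22.9% of all genes. Hmgcs1 stood there at 51.2, 159 and 87.4 CPM and Cyp51 at 19.2, 84.9 and 51.1 CPM. With celastrol 1 was higher and 7 lower over the class, where 9.99% of all genes were higher and 12.4% lower. The cells compared there are all of cluster 19, whose own minimum on UMIs gave 1 and 7 against 8.14% and 11.4% of all genes.

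Summed over all kept cells, 9 of the 31 members were higher with imiquimod and 2 lower, where 16.8% of all genes were higher and 24.7% lower. With celastrol none was higher and 5 lower, against 8.49% and 13.1%. In such a sum, fewer cells of a class cannot be told apart from less RNA per cell. Sebocyte-like cells numbered 66, 5 and 5 in it, and inner root sheath or hair shaft-like cells numbered 1140, 1 and 1.

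**Figure D5:**
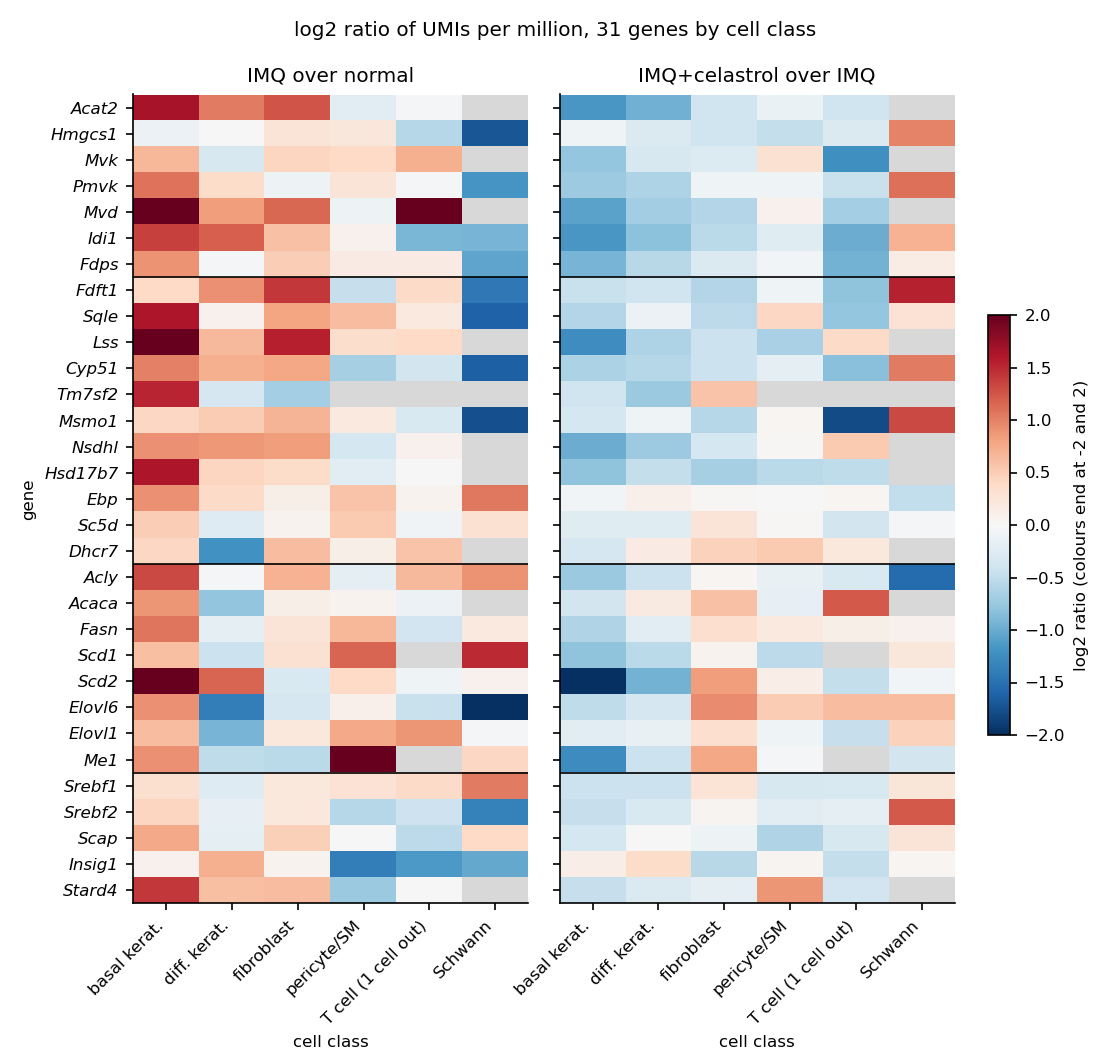
log2 ratio of CPM for the 31 genes (rows) by cell class (columns), for IMQ over normal and for IMQ+celastrol over IMQ, which share the IMQ library. The T cell-like column is computed without the 1 cell with most Scd1 UMIs. In the basal keratinocyte-like column 23 genes are at least 1.5-fold higher in the first panel and 15 at least 1.5-fold lower in the second.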

How the data were processed

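Each group gave 1 library of 3' transcripts from dorsal skin cells. Per the file headers, the authors used Cell Ranger 4.0.0 to make the deposited tables, which hold whole-number counts of UMIs for each gene in each barcode. Per the submitters' processing notes, the genome build was mm10 (GRCm38). The rule for calling cells was not given in the sources used here, and the lowest barcodes held 502, 501 and 500 UMIs.

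Cells with under 300 genes or over 20% mitochondrial UMIs were left out. Doublets were scored with Scrublet in scanpy 1.11.5, and the highest scores were left out at 0.8% per 1000 cells, or 870, 513 and 330 cells, since its own threshold marked 213, 1 and 88. Without integration, 2000 variable genes (members and other pathway genes excluded), 30 principal components and 15 neighbours were clustered by Leiden at resolution 1 (leidenalg 0.10.2). Clusters were named from 20 marker lists, and 10 stayed unnamed. Python 3.11.15, numpy 2.4.6, scipy 1.17.1, pandas 2.3.3, scikit-learn 1.9.0 and matplotlib 3.10.9 were used.

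Ratios of CPM carry exact conditional binomial 95% intervals, CPM exact Poisson and shares exact binomial ones. The calculations were tested on simulated sums that held counting error alone. That test could not show how the intervals hold where cells, animals or libraries differ. Classes with at least 50 cells in each library compared were compared. All members are accounted for. Members past 1.5-fold with at least 100 UMIs were described in the main classes (basal, differentiated, fibroblast-like and T cell-like), up to 6 per role, with the 3 other pathway genes of largest ratio, of which 1 in T cell-like cells is not reported here. Genes of other classes and clusters, and those given as contrasts, were picked after their values were seen. The members and lists were chosen with earlier results of these data known. Faxdc2 was not analysed here. Alternatives changed doublet removal, clustering, naming, scale, minimum, depth and fold.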

Additional observations from a re-analysis of the deposited data

Results flagged for a closer look

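For 2 role groups the median ratio was past 1.5-fold upward in some classes and downward in others, and none of these differences was tested. With imiquimod the median log2 ratio of the early sterol genes was 1.31 in dendritic or Langerhans-like and 1.08 in basal keratinocyte-like cells, and -1.12 for the 4 measured in Schwann-like cells. For the squalene and ring genes it was 1.05 in dendritic or Langerhans-like, 0.92 in basal keratinocyte-like and 0.69 in fibroblast-like cells, and -1.52 for the 6 measured in Schwann-like cells. Between IMQ+celastrol and IMQ the early sterol genes had a median of 0.85 in Schwann-like cells (4 measured), -0.61 in differentiated keratinocyte-like, -0.68 in T cell-like and -0.93 in basal keratinocyte-like cells.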

How the results depend on the processing

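The alternatives numbered 11 planned ones and 8 added after seeing the data, which left out or kept apart clusters, added follicle-like cells or left out 1 cell. No paired analysis was possible because each group holds 1 library. In basal keratinocyte-like cells the 23 higher and 15 lower members became 13 and 6 at a fold of 2, and no other alternative moved these counts by over 1.5 times.

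In differentiated keratinocyte-like cells the 10 higher with imiquimod became 0 with Scrublet's own threshold, 3 at a fold of 2 and 3 without cluster 15. The 4 lower became 14 with Scrublet's own threshold, 7 with libraries clustered separately, 2 at a fold of 2 and 2 with follicle-like cells added. With celastrol, 1 member was higher with doublets kept, with members among the variable genes, with thinning or without cluster 5. The 8 lower became 5 with doublets kept or members among the variable genes, 14 with separate clustering, 0 at a fold of 2 and 4 without cluster 15.

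In fibroblast-like cells the 12 higher with imiquimod became 5 with separate clustering, 7 with every cluster named and 4 at a fold of 2, and the 1 lower became 2 with doublets kept and 0 at a minimum of 300 UMIs or a fold of 2. With celastrol the 4 higher became 0 at a fold of 2. The 1 lower became 2 with doublets kept or Scrublet's own threshold, 7 with the mean of cells' shares or centring, 6 with thinning, and 0 with separate clustering, members among the variable genes, every cluster named or a fold of 2.

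In T cell-like cells the 2 higher with imiquimod became 4 with separate clustering, members among the variable genes, thinning, without cluster 10 or without the 1 cell, 5 with mean shares, 0 at a minimum of 300 UMIs and 1 at a fold of 2. The 7 lower became 11 with Scrublet's own threshold, 2 with separate clustering, members among the variable genes or without the 1 cell, 3 with mean shares or without cluster 10, and 4 at a fold of 2. With celastrol the 2 higher became 1 with Scrublet's own threshold, mean shares or a fold of 2, and 0 at the minimum of 300 or with thinning, and the 9 lower became 4 at the minimum of 300 and 3 at a fold of 2.

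Of 974 recomputed ratios of single genes 14 changed sign. With Scrublet's own threshold the log2 ratio with imiquimod was -0.24 for Elovl6 in basal cells, and in differentiated cells -0.23 for Mvd, -0.074 for Fdft1, -0.13 for Lss, -0.26 for Cyp51, -0.10 for Insig1, -0.11 for Scd2 and -0.25 for Stard4. Without cluster 15 Lss and Stard4 were at -0.044 and -0.036. Thinned, Tm7sf2 in basal cells was at -1.0. With celastrol Hsd17b7 was at 0.33 in basal clusters that were not cycling. Without cluster 10, Hmgcs1 and Msmo1 in T cell-like cells were at 0.31 and 0.14 with imiquimod. Where a value does not show it, the cause was not tested. Depth limits the sparse members, such as Lss and Tm7sf2, and the classes with few UMIs, such as Schwann-like cells, in which thinning left 19, 32 and 35 cells and no count of members was made.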
